A study of Mus musculus with 6 samples.

Results

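The imprinted Dlk1-Dio3 region of mouse chromosome 12 carries one of the largest miRNA clusters of the genome, and its miRNAs were followed here in RAW 264.7 cells, a macrophage-like line grown from a tumour of a male mouse. Members were chosen by name: 45 mature miRNAs of the region were looked up in a table of 1109 mature miRNAs, and 33 of them, from 27 hairpins, had a row. Small RNA (14 to 36 nt, cut from a gel) was sequenced in 3 control libraries, labelled as untreated, and 3 oxLDL libraries, labelled with ox-LDL (oxidized low-density lipoprotein) and 48 h. Ox-LDL is the modified lipoprotein that macrophages take up when they become lipid-laden foam cells. All 6 libraries came from the 1 cell line, with no dose of ox-LDL in the labels. The control columns are named for 0 h, so treatment and time in culture cannot be told apart. Nothing in the labels ties a library to its own culture, so the p-values below cover only the spread between these libraries, which may be technical.

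Genes of the region are expressed from 1 parental chromosome only. Dlk1, Rtl1 and Dio3 are read from the paternal copy, while the long noncoding RNAs Meg3, Rian and Mirg, and the miRNAs and small nucleolar RNAs processed from their transcripts, come from the maternal copy. The miRNAs are best known from brain, placenta and embryonic tissues. Several of them lie antisense to Rtl1, a retrotransposon-derived gene needed in the placenta, and pair with its mRNA over their whole length, so that maternal miRNA represses the paternal gene. Further along is a long run of hairpins from miR-379 to miR-410, known in rodent neurons as an activity-dependent group.

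In RefSeq's annotation (GRCm38.p6) the 37 hairpins behind the 45 names spanned 158.0 kb of chromosome 12, from 109585789 to 109743795, all on the plus strand. In GENCODE's GRCm38 annotation 5 of the 8 hairpins of the first segment (called the Rtl1 segment here) lay antisense to an exon of Rtl1. The 2 hairpins of miR-341 and miR-370 lay in introns of Rian. Of the 27 hairpins of the run from miR-379 to miR-410, 11 lay in exons or introns of Mirg. The other 19 of the 37 lay within no other annotated gene, with genes of miRNAs and small nucleolar RNAs left aside. Mir299a, 1 of these 19, overlaps the hairpin of miR-299b on the minus strand.

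The sequences of the 4 miRNAs with enough reads to be tested are shown because the comparison rests on them, followed by 2 members that are close to one of them in sequence and by miR-369-3p, the member with the most uneven reads between the groups among the 10 most abundant. Capitals mark the seed, bases 2 to 8 from the 5′ end, the part of a miRNA that chooses its targets. Sequences are RefSeq's (GRCm38.p6, chromosome 12, plus strand).
mmu-miR-127-3p: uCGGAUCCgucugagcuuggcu
mmu-miR-411-5p: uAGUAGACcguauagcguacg
mmu-miR-381-3p: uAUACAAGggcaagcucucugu
mmu-miR-136-3p: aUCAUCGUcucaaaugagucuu
mmu-miR-379-5p: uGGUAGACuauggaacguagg
mmu-miR-300-3p: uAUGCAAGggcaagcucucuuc
mmu-miR-369-3p: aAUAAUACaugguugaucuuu

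A mature sequence was found for 30 of the 33 members in the table (all but miR-376c-3p, miR-485-5p and miR-487b-3p). These 30 had 30 different seeds, so no 2 of them form a family by a shared seed. The closest seeds were those of miR-300-3p and miR-381-3p, which differ by G4A (the base of the first named, its position from the 5′ end, the base of the second), and those of miR-379-5p and miR-411-5p, which differ by G2A. Over their whole length miR-300-3p and miR-381-3p share a run of 16 bases and differ by G4A, U21G and C22U. The 30 sequences began with U in 14 cases, with A in 10, with G in 4 and with C in 2.

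The hairpins of the 2 most abundant members are shown because they differ in the arm that was read, with both mature arms in capitals (GRCm38.p6, chromosome 12, plus strand). Mir127 lies at 109592846 to 109592915, antisense to an exon of Rtl1, and Mir411 at 109710175 to 109710256, near the start of the long run.
Mir127: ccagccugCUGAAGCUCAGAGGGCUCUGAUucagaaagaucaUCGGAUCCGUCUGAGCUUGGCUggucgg
Mir411: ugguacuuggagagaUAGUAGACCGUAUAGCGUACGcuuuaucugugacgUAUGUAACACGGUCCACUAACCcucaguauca

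Cluster miRNAs were present at trace levels in these cells. The 33 members held 996 reads in all 6 libraries together, out of library totals of 5502833 to 7373197 miRNA reads, so that a level of 1 RPM (1 read in a library scaled to 1000000 miRNA reads) stood for 5.50 to 7.37 reads. Their pooled share ran from 0.00135% to 0.00482% of the miRNA reads of a library. By contrast, the 6 macrophage and myeloid miRNAs used to check the label (miR-223-3p, both arms of miR-142a, miR-146a-5p, miR-155-5p and miR-342-3p) were read in every library and summed to between 75063 and 89323 RPM. The most abundant cluster member, miR-127-3p, ranked only 320 of 1109 by total reads.

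Reads were concentrated in a few members. The 4 most abundant, miR-127-3p, miR-411-5p, miR-381-3p and miR-136-3p, held 78.6% of the cluster's reads, and the 10 most abundant held 91.8%. At the other end, 23 members had under 10 reads in all libraries together and 6 had exactly 1. Only 6 members were read in every library: those 4, miR-410-3p and miR-409-3p. A further 18 were read in 2 to 5 libraries and 9 in a single library.

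**Figure D1:**
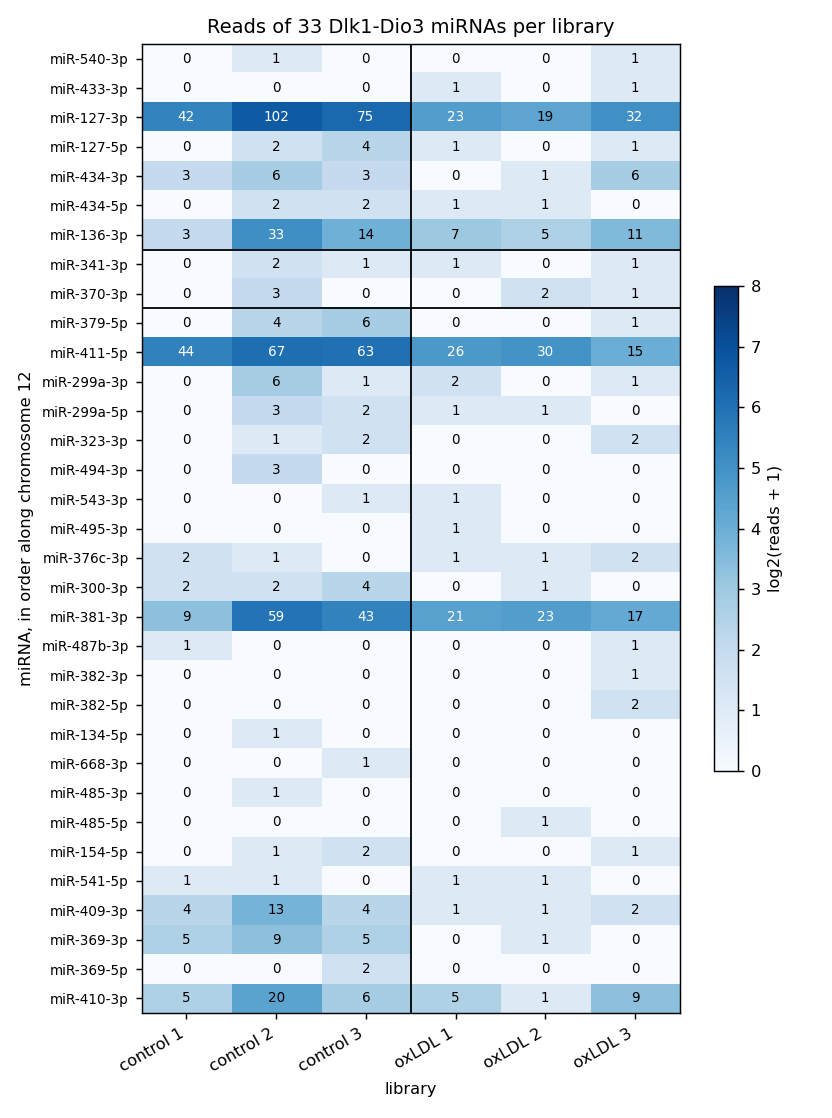
Reads of each of the 33 members (vertical axis, ordered by the position of their hairpin on chromosome 12, with lines between the Rtl1 segment, the 2 Rian hairpins and the run from miR-379 to miR-410) in each of the 6 libraries (horizontal axis). Numbers are reads and the shade is log2(reads + 1). Most cells hold 0 to 2 reads, and miR-127-3p, miR-411-5p and miR-381-3p stand out as dark rows.

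At least 1 read was found for 12, 24 and 20 members in control replicates 1, 2 and 3, and for 16, 15 and 20 in oxLDL replicates 1, 2 and 3. The fewest were thus in the deepest library, control replicate 1, and the groups overlapped. With every library thinned to 5502833 reads the numbers were 12, 21 and 18 in control and 16, 13 and 19 in oxLDL. A count of 0 in one library allows a level of up to 0.407 to 0.545 RPM (3 reads of its total), and such limits and all binomial intervals below cover counting error only, since reads copied by PCR are not separate molecules.

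Pooled over all members, the libraries differed as much within the control group as between the groups. Control replicate 1 held 121 cluster reads, 16.4 RPM (95% exact binomial interval 13.6 to 19.6). Control replicate 2 held 343 reads, 48.2 RPM (43.2 to 53.5). Control replicate 3 held 241 reads, 36.7 RPM (32.2 to 41.6). Control replicate 1 was therefore 2.93 times below control replicate 2, with counting intervals far apart.

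The oxLDL libraries lay close together. The first of them held 94 cluster reads, 17.1 RPM (13.8 to 20.9). The second held 89 reads, 13.5 RPM (10.9 to 16.7). The third held 108 reads, 17.1 RPM (14.0 to 20.7). Control replicate 1 fell inside the range of these 3 libraries, so the groups overlapped, while control replicates 2 and 3 lay above all of them.

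By group the cluster was at 33.7 ± 16.1 RPM in control and 15.9 ± 2.05 in oxLDL (mean ± SD, n = 3 each), with a control mean 2.12 times that of oxLDL. This ratio was 1.67 without control replicate 2 and 2.67 without control replicate 1. The difference of the means was of the size of the SD of the control libraries. No p-value is given for the sum, because the members were chosen as a group with results known. In such bulk RNA, fewer cells that carry these miRNAs and less of them per cell cannot be told apart.

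**Figure D2:**
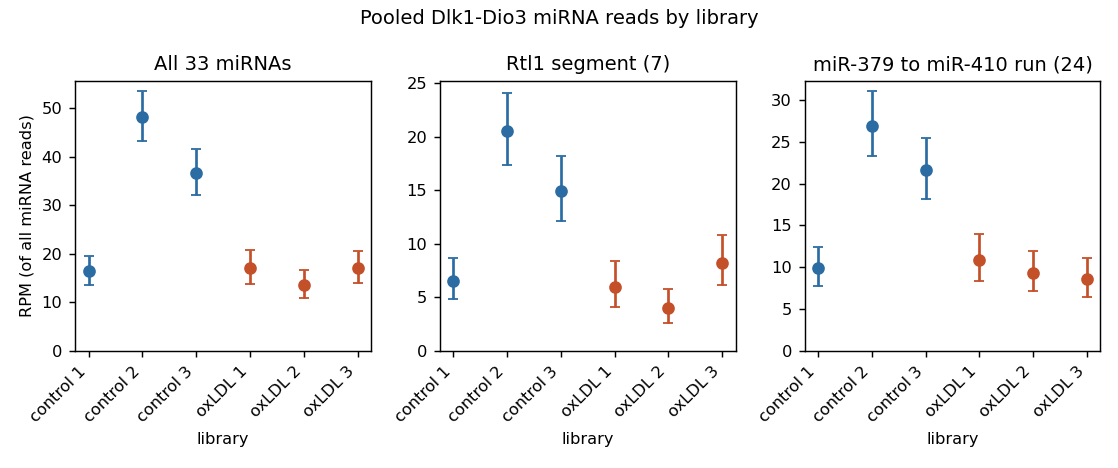
Pooled reads in RPM (vertical axes from 0) in each library (horizontal axes) for all 33 members, for the 7 members of the Rtl1 segment and for the 24 of the run from miR-379 to miR-410. Points are single libraries, bars are 95% exact binomial intervals for counting error, blue is control and orange is oxLDL. In each panel control replicates 2 and 3 lie above the oxLDL libraries and control replicate 1 lies among them.

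Both ends of the region followed the same order of control libraries. The 7 members of the Rtl1 segment, with 403 reads, were at 6.51, 20.5 and 14.9 RPM in control replicates 1, 2 and 3. They were at 6.0, 3.96 and 8.24 in oxLDL. The 24 members of the run from miR-379 to miR-410, with 582 reads, were at 9.90, 27.0 and 21.6 in control and at 10.9, 9.28 and 8.56 in oxLDL. Ratios of control to oxLDL means were 2.30 for the Rtl1 segment and 2.03 for the long run. The 2 members between them, miR-341-3p and miR-370-3p, had 11 reads in all, 6 in control and 5 in oxLDL.

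Other miRNAs of the region that were not among the 45 names also had fewer reads in oxLDL, at even lower counts. Of 66 such names, 14 had a row, with 56 reads in all, and none had enough reads to be tested. Their sums were 1.22, 2.53 and 1.98 RPM in control and 0.909, 0.609 and 1.11 in oxLDL. With this scaling by library totals the groups did not overlap, but they were barely apart. The nearest libraries were control replicate 1, with 9 reads, and oxLDL replicate 3, with 7. Their exact binomial intervals, 0.558 to 2.32 and 0.446 to 2.29 RPM, overlapped widely. The most abundant of the 14 was miR-654-3p, with 6, 6 and 3 reads in control and 1, 0 and 3 in oxLDL.

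Control replicate 2, the library with the most cluster reads, also had the most reads of several miRNAs that mark other cell types, all given in RPM. The 5 erythroid and serum markers (miR-451a, miR-486a-5p, miR-486b-5p and both arms of miR-144) summed to 298.7 there, against 83.5 and 104.6 in control replicates 1 and 3 and 40.8 to 76.9 in oxLDL. Reads of miR-486a-5p and miR-486b-5p were identical in every library, so this sum may count the same reads again (68.4 for each in control replicate 2). The 4 muscle markers (miR-1a-3p, miR-133a-3p, miR-133b-3p and miR-206-3p) summed to 515.1 there, 86.3 to 90.1 in the other controls and 59.4 to 229.9 in oxLDL. The hepatocyte marker miR-122-5p was at 90.8 there, at 18.4 and 5.63 in control replicates 1 and 3, and at 1.83 to 11.3 in oxLDL. Among the controls the muscle list (90.1 in replicate 1 and 86.3 in replicate 3) and miR-122-5p were lowest in replicate 3, unlike the cluster. The erythroid and serum list was lowest in replicate 1 and highest in replicate 2, the order of the cluster itself.

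The 4 fibroblast and mesenchymal markers summed to 3547, 6038 and 5707 RPM in control replicates 1, 2 and 3, the same order among the controls, and to 5002, 3247 and 2204 in oxLDL. Within it miR-143-3p, a smooth muscle and fibroblast miRNA, was at 1887, 4578 and 3813 in control and 3319, 1663 and 786.8 in oxLDL. Its member miR-214-3p was at 12.5, 12.9 and 13.4 in control and 3.09, 2.28 and 1.11 in oxLDL, and miR-199a-3p ran from 1416 to 1881 over all libraries. The smallest marker, miR-145a-5p, was under 0.5 in every library and at 0 in oxLDL replicate 3. For the neural list, 4 of 5 markers had a row and summed to 33.4, 38.7 and 55.3 in control and 33.6 to 39.5 in oxLDL. This sum was highest in control replicate 3, so it did not follow the cluster's order among the controls. Most of it was miR-138-5p, at 25.5, 26.0 and 49.2 in control replicates 1, 2 and 3. In the same libraries miR-124-3p was at 1.09, 5.76 and 0.609, highest in replicate 2 like the cluster. The values were 3.66, 4.91 and 4.87 for miR-219a-5p and 3.12, 2.11 and 0.609 for miR-9-3p. The macrophage and myeloid sum did not follow the cluster's order either, at 82503, 75799 and 89323 in control replicates 1, 2 and 3. The part of these markers in the cluster's values was not tested.

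Whether single cluster miRNAs differ in ox-LDL-treated cells was asked with edgeR's quasi-likelihood test on all 475 entries with enough reads, at an adjusted p (Benjamini-Hochberg over those entries) of 0.05. Only 4 of the 33 members had enough reads to enter. Of these, 2 fell, miR-127-3p and miR-411-5p, and none rose. All 4 fold changes were below 0, also in DESeq2 and limma-voom. Over all 475 entries 45.7% passed in either direction, 24.0% as lower and 21.7% as higher. Both calls were as lower, so 24.0% is the like share to set beside 2 of 4. These shares were not tested against each other, and 4 members are too few to read a difference from. The groups did not overlap for the same 2 of 4, against 59.2% of all tested entries. The median log2 fold change was -0.84 over the 4 members and -0.13 over all tested entries, with the latter at -0.28 when libraries were scaled by their totals alone. The 2 called members were above edgeR's minimum (10 reads at the median library size) in all 3 libraries of both groups. For miR-381-3p this held in 2 control and 3 oxLDL libraries, and for miR-136-3p in 2 control libraries and 1 oxLDL library.

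In the Rtl1 segment, miR-127-3p is the miRNA best known for cutting Rtl1 mRNA. It had 42, 102 and 75 reads in control replicates 1, 2 and 3, and 23, 19 and 32 in oxLDL. All 3 control values lay above all 3 oxLDL values, and control replicate 1 was nearest to the treated libraries. After TMM scaling (edgeR's correction for library composition) the level was 9.83 ± 3.89 CPM, RPM with this correction, in control and 4.26 ± 1.13 in oxLDL (mean ± SD, n = 3). The miRNA was 2.31 times lower in oxLDL (log2 fold change -1.20, SE 0.355, edgeR adjusted p = 0.0258). The call of miR-127-3p was lost without control replicate 2 (adjusted p = 0.0792), control replicate 3 (0.0555), oxLDL replicate 1 (0.0635) or oxLDL replicate 2 (0.0862) in the same edgeR test, with the log2 fold change between -0.94 and -1.48 over all single omissions. Over 13 alternatives the adjusted p ran from 0.000508 (no filter) to 0.0862.

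Also antisense to Rtl1, miR-136-3p had 3, 33 and 14 reads in control and 7, 5 and 11 in oxLDL. The lowest and the 2 highest values were all in control, so the groups overlapped. Its levels were 2.23 ± 2.0 CPM in control and 1.32 ± 0.514 in oxLDL (log2 fold change -0.75, SE 0.726, edgeR adjusted p = 0.416). Without control replicate 2 the fold change had the other sign (log2 0.15, adjusted p = 0.873 in the same test), and over 13 alternatives the adjusted p ran from 0.0970 to 0.873.

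In the long run, miR-411-5p had 44, 67 and 63 reads in control and 26, 30 and 15 in oxLDL. Every control value lay above every oxLDL value, and control replicate 1 was much closer to the other controls than it was for the cluster as a whole. The level was 7.83 ± 1.57 CPM in control and 4.10 ± 1.37 in oxLDL (mean ± SD, n = 3), 1.91 times lower (log2 fold change -0.93, SE 0.30, edgeR adjusted p = 0.0348). The call of miR-411-5p was lost in edgeR's test without control replicate 2 (adjusted p = 0.0764), control replicate 3 (0.0670), oxLDL replicate 2 (0.0574) or oxLDL replicate 3 (0.0810), with the replicate number as a block (0.0619) and after centring on the median entry (0.0569), and in DESeq2 (0.0656). Over 13 alternatives the adjusted p ran from 0.0136 (no filter, with the same limit) to 0.0810.

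Further along the run, miR-381-3p had 9, 59 and 43 reads in control and 21, 23 and 17 in oxLDL. Control replicate 1 was the lowest of all 6 libraries, below every oxLDL library, while the other controls were the highest. Levels were 4.97 ± 3.38 CPM in control and 3.52 ± 0.574 in oxLDL (log2 fold change -0.50, SE 0.556, edgeR adjusted p = 0.476). Without control replicate 1 it passed (log2 fold change -0.97, edgeR adjusted p = 0.0324), and it was at a log2 fold change of -0.06 without control replicate 2 (edgeR adjusted p = 0.947; 0.0324 to 0.947 over 13 alternatives). The low value of miR-381-3p in control replicate 1 thus set whether it passed.

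**Figure D3:**
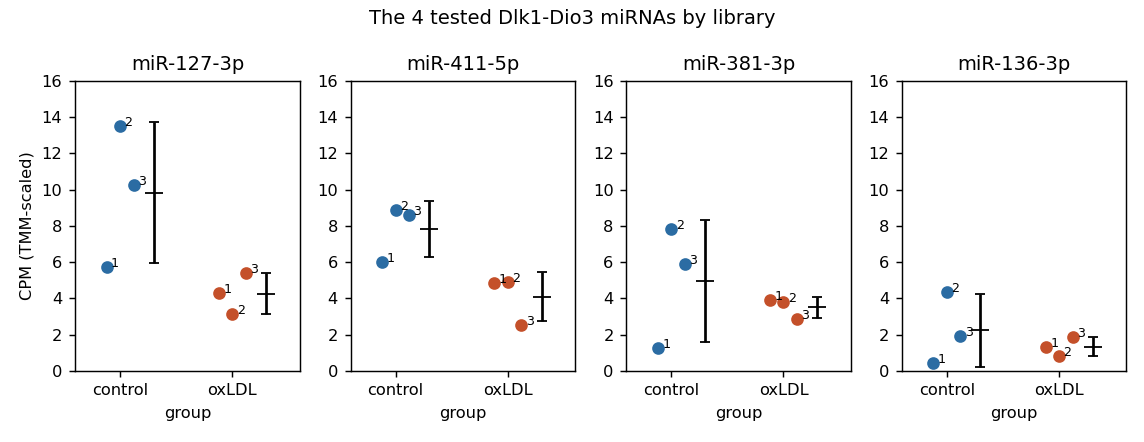
Level of the 4 tested members (vertical axes, TMM-scaled CPM from 0) in control (blue) and oxLDL (orange). Points are single libraries with their replicate number and the black marks are the mean ± SD of 3 libraries. For miR-127-3p and miR-411-5p the groups are apart, and for miR-381-3p and miR-136-3p control replicate 1 lies below the oxLDL libraries.

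**Figure D4:**
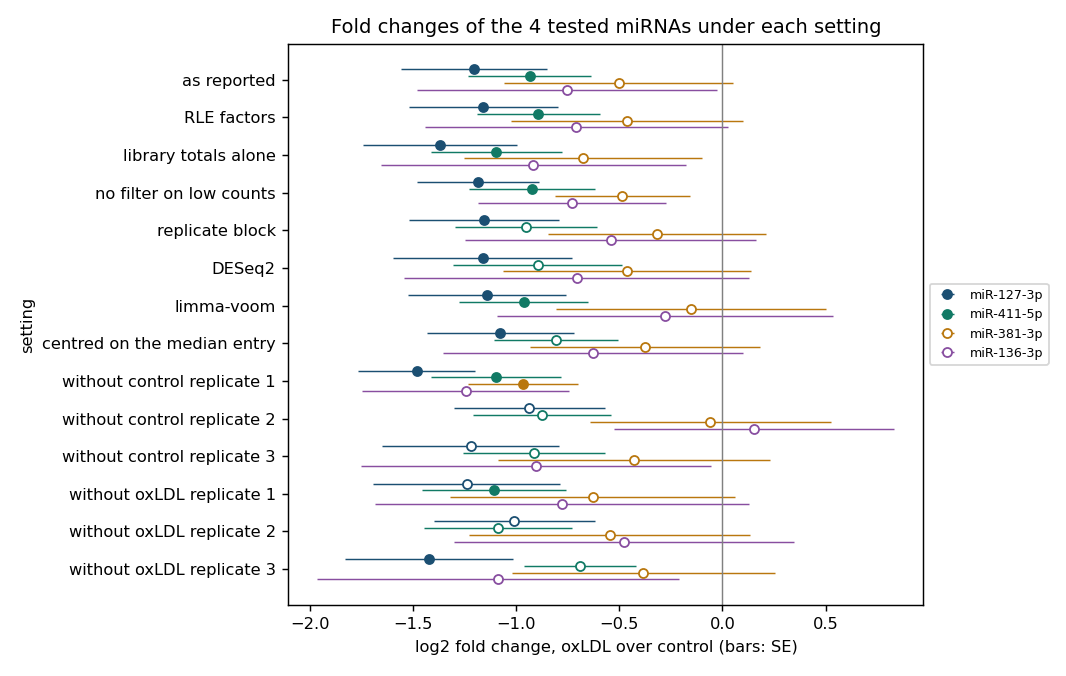
Log2 fold change of oxLDL over control (horizontal axis, bars are SE) for the 4 tested members under each processing setting (vertical axis). Filled points passed an adjusted p of 0.05 and open points did not. The points of miR-127-3p and miR-411-5p stay below 0 and change between filled and open, and that of miR-136-3p lies above 0 without control replicate 2.

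The difference between control replicate 1 and the other controls was uneven between members, described here for 2 pairs formed after their reads were seen, with no test. Which control level is the usual one was not tested. In control replicate 1 miR-127-3p and miR-411-5p made up 86 of 121 cluster reads, 71.1% (95% exact binomial interval 62.1 to 79.0). The same pair made up 49.3% (43.9 to 54.7) in control replicate 2 and 57.3% (50.8 to 63.6) in control replicate 3. In oxLDL replicates 1, 2 and 3 it made up 52.1%, 55.1% and 43.5%. Conversely, miR-381-3p and miR-136-3p together made up 9.92% (5.23 to 16.7) of the cluster's reads in control replicate 1, against 23.7% to 26.8% in the other controls and 25.9% to 31.5% in oxLDL.

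Below the level that could be tested, the next members by total reads were miR-410-3p, miR-409-3p, miR-369-3p, miR-434-3p, miR-379-5p and miR-299a-3p. The last hairpin of the run gave miR-410-3p, with 5, 20 and 6 reads in control and 5, 1 and 9 in oxLDL. The groups overlapped. Over all libraries of a group, the control RPM was 1.80 times oxLDL, with a 95% counting interval of 0.945 to 3.6 that includes equality.

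The nearby hairpins Mir409 and Mir369 gave the 2 of these 6 members whose groups did not overlap, against 32.8% of all 1109 entries of the table. For miR-409-3p there were 4, 13 and 4 reads in control and 1, 1 and 2 in oxLDL, a ratio of 4.58 with a counting interval of 1.55 to 18.4. For miR-369-3p, known in human cells for pairing with the AU-rich element of the TNF mRNA, there were 5, 9 and 5 reads in control and 0, 1 and 0 in oxLDL. The treated libraries were nearly empty, and the ratio of 16.6 had a counting interval of 2.64 to 689.0. These intervals hold no spread between libraries. When edgeR was run with no filter on low counts, miR-369-3p passed (log2 fold change -3.51, adjusted p = 0.00456) and miR-409-3p did not (-1.94, adjusted p = 0.0532). In that fit 3 of 33 members passed as lower (with miR-127-3p and miR-411-5p), against 12.3% of all 1109 entries. It gave far smaller p-values for like estimates. For miR-127-3p the unadjusted edgeR p was 6.23e-05 (log2 fold change -1.19, SE 0.296). With the filter it was 0.00979 (log2 fold change -1.20, SE 0.355). Calls without the filter may thus be overstated for 3 libraries per group.

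Of the other 3, miR-434-3p, antisense to Rtl1, had 3, 6 and 3 reads in control and 0, 1 and 6 in oxLDL. Its level was highest in oxLDL replicate 3, at 0.951 RPM against 0.842 in control replicate 2. The first hairpin of the long run gave miR-379-5p, with 0, 4 and 6 reads in control and 0, 0 and 1 in oxLDL, so control replicate 1 again had none. For miR-299a-3p there were 0, 6 and 1 reads in control and 2, 0 and 1 in oxLDL. Its source is uncertain, since the 18 bases listed for miR-299b-3p are a run within it, and miR-299a-5p shares 21 bases with miR-299b-5p. The members miR-300-3p and miR-381-3p, which are close to each other, had 9 and 172 reads in all, so a misassigned read would weigh mainly on miR-300-3p.

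The other 23 members had 1 to 9 reads each. Of these, miR-300-3p had 2, 2 and 4 reads in control and 0, 1 and 0 in oxLDL. In the reverse direction, miR-376c-3p had 2, 1 and 0 in control and 1, 1 and 2 in oxLDL. Neuronal miR-134-5p, known in rat for limiting the growth of dendritic spines, had 1 read, in control replicate 2. Over the 29 members that were not tested, 18 had a higher RPM in the pooled control libraries than in the pooled oxLDL libraries. The same count was not made over all entries. With such scaling by library totals alone the median log2 fold change over all tested entries was already -0.28. The sum of the 29 members was 3.12, 11.5 and 7.0 RPM in control and 3.09, 1.83 and 5.23 in oxLDL, again with overlap. Read in control libraries alone were 5 members (miR-494-3p, miR-369-5p, miR-134-5p, miR-485-3p and miR-668-3p), and in oxLDL libraries alone another 5 (miR-382-5p, miR-382-3p, miR-433-3p, miR-485-5p and miR-495-3p), none with more than 3 reads.

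No row was found under 12 of the 45 names, and these were not analysed here: miR-136-5p, miR-329-3p, miR-337-5p, miR-376a-3p, miR-376b-3p, miR-377-3p, miR-380-3p, miR-409-5p, miR-431-5p, miR-496a-3p, miR-665-3p and miR-667-3p. In the table every row had at least 1 read in some library.

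The arm that was read differed between hairpins. Reads of both arms summed over all libraries came almost only from the 3p arm in Mir127 (293 of 301 reads, 97.3%, 95% exact binomial interval 94.8 to 98.8) and Mir381 (172 of 173 reads, 99.4%, 96.8 to 99.99). They came from the 5p arm in Mir411, where the 3p arm had 9 of 254 reads (3.54%, 1.63 to 6.62). For Mir136 the 3p arm had 73 reads, and its 5p arm had no row to compare. For Mir379, the neighbour of Mir411 with a close 5p seed, the 3p arm had 3 of 14 reads (21.4%, 4.66 to 50.8). Mir434 stood between, with 19 of 25 reads on its 3p arm (76.0%, 54.9 to 90.6). Adaptor ligation favours some RNA ends, so such shares are of reads and not of molecules.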

How the data were processed

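The authors deposited 1 table of estimated counts (expected counts) of reads per mature miRNA, unscaled. A total of 117 among 6654 values were not whole (tolerance 1e-06), and values were rounded here. The genome build was GRCm38.p5 per the submitters' processing notes. The aligner, counter, miRNA database and treatment of multiply matching reads are not given in the sources used here. Groups follow the sample titles, and each column name gives its group and number. No pair of libraries agreed within sampling noise (smallest chi-square over degrees of freedom 111).

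Tests used edgeR 4.0.16 (R 4.3.3): quasi-likelihood, TMM factors, filterByExpr by group, Benjamini-Hochberg adjustment over all tested entries. Pooled sums, detection, arm shares and rate ratios are descriptions with exact intervals. The edgeR step was also run on simulated counts, with no result of that run given here. DESeq2 1.42.0 and limma-voom (limma 3.58.1) were alternatives, with other scalings, filters, a replicate block and omission of each library. Members and lists were chosen with earlier results of these data known. Each tested member and the 10 with most reads are named in full. Other members named singly (miR-300-3p, miR-376c-3p, miR-134-5p, those read in 1 group and miR-654-3p) and miR-143-3p, miR-199a-3p, miR-214-3p and miR-145a-5p among the markers were chosen after their values were seen. The 4 neural markers with a row were also given singly after their values were seen. Sequences and positions are from RefSeq, host genes from GENCODE M21.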

Additional observations from a re-analysis of the deposited data

How the results depend on the processing

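The count of 2 members lower in oxLDL was 1 with the replicate block, 1 with DESeq2 and 1 after centring on the median entry, which was chosen after seeing the data. It ran from 0 to 3 when a library was left out. It was 0 without control replicate 2, control replicate 3 or oxLDL replicate 2, and 3 without control replicate 1. Each of these fits tested 4 members. Over all entries, in either direction, 197 of 475 passed with DESeq2 and 223 of 475 after centring. Without control replicate 1, 2 or 3, 169 of 487, 197 of 484 and 209 of 487 entries passed. Without oxLDL replicate 1, 2 or 3, 215 of 495, 161 of 495 and 191 of 495 passed. The count of members was 3 with no filter on low counts, a fit that may overstate its calls. There 33 members were tested and 251 of 1109 entries passed in either direction. No member was left to test at a mean of at least 10 CPM. The block has no basis in the labels, and deviations of same-numbered libraries correlated at -0.30, -0.23 and -0.10. With the block the log2 fold changes were -1.16 for miR-127-3p and -0.95 for miR-411-5p, and 178 of 475 entries passed in place of 217. For miR-136-3p the log2 fold change ran from -1.24 to 0.15 when a library was left out, the latter without control replicate 2. The fold changes of the other 3 tested members were below 0 under all 13 alternatives run.

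The ratio of pooled control to oxLDL means, 2.12, was 1.83 to 1.89 with RLE or TMM-scaled library sizes, 1.96 without miR-127-3p, 2.13 over the members not tested in edgeR (also chosen after seeing the data), and 1.67 to 2.67 with a library left out. Detection depended on the minimum: a mean of 18.7 members per control library and 17.0 per oxLDL library at 1 read, 10.7 and 5.00 at 3 reads, 7.0 and 5.00 at 5 reads. The other 29 members, with 1 to 46 reads each over all 6 libraries, were too shallow for the test as run.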
